A study of Mus musculus with 8 samples.

Results

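The transcripts described are 48 mouse genes of mitosis and of the G2/M transition, taken as a list of symbols and matched to the rows of a table of 35275 genes. All 48 were found. A gene was tested where it averaged 1 FPKM or more across the 8 libraries, which 10981 genes did, 44 of the 48 among them. Ttk, Kif20b, Cenpe and Cenpf did not pass and are described only. The cells were myotubes, the multinucleated cells of cultured muscle, grown from C57BL6/J mouse primary cultures of myogenic progenitor cells (MPCs). There were 4 groups of 2 libraries: myotubes kept with extracellular vesicles (EVs, membrane particles that cells shed) of proliferating MPCs for 24 h, control myotubes at 24 h, myotubes kept with MPC EVs for 12 h, and control myotubes at 12 h. EVs were prepared by a polymer-based method. Controls received EVs made from growth medium, no untreated myotubes were analysed here, and the study asked what MPC EVs do to gene expression in myotubes. FPKM are fragments per kilobase of gene, scaled to library depth. Differences are on the log2(FPKM + 0.5) scale, which understates those of low genes, and are given with their standard error (SE). Adjusted p-values are from limma, fitted to all 8 libraries, with Benjamini-Hochberg adjustment over all genes tested and a threshold of 0.05. Whether paired libraries stem from different cultures is not labelled, so the p-values rest on a spread between libraries that may be technical only.

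Cells enter mitosis when the kinase Cdk1, bound to a B-type cyclin, becomes active, and leave it when the anaphase-promoting complex (APC/C) with its activator Cdc20 marks cyclin B and securin for destruction. In between, the spindle is built by motors and cross-linkers, kinetochores attach chromosomes to it, a checkpoint holds back the APC/C until attachment is complete, and the Aurora B passenger complex corrects attachments and later directs cytokinesis. The genes are transcribed late in the cycle, largely through the MuvB complex with B-Myb and FoxM1, which acts at a short element named CHR and beside CCAAT boxes bound by NF-Y. Progenitors leave the cell cycle before they fuse, so muscle nuclei transcribe these genes little, and cultures of myotubes usually keep some mononucleated cells. In bulk RNA, fewer cells of a type and less RNA per cell cannot be told apart.

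Promoter sequences are shown because 22 of the 44 tested members rose between the times in both treatments. The share of all tested genes that rose in both is not given. It cannot exceed 7.54%, the share that rose in control myotubes. Of the 48 members, 40 had a window in the RefSeq promoter table (build GRCm38.p6). Both strands of the 250 bases before each start were searched by exact letters. CCAAT was found in 30 of the 40 members (75.0%), against 33.8% of 32851 windows of all genes. The letters of the CHR element, TTTGAA or TTCGAA, were found in 14 members (35.0%), against 17.1% of all windows, and 13 of these 14 (32.5% of members, against 6.02% of all windows) also held CCAAT. The E2F letters GCGGGAA were in 0 of the 40 members and in 3.82% of all windows, which says only that those exact letters are not in these windows. The counts include matches that overlap or lie side by side. The last 180 bases before the start are printed for 4 members whose transcripts were higher at 24 h than at 12 h in both treatments. In these bases 2 had CCAAT and TTTGAA (Cdc20 and Ccnb2), and 2 had CCAAT without TTTGAA or TTCGAA (Plk1 and Ccnb1). No other letters were searched for the CHR element, so its absence is not shown. Capitals mark the matches, all of which read on the printed strand.
Cdc20, chr4:118437344-118437523, minus strand: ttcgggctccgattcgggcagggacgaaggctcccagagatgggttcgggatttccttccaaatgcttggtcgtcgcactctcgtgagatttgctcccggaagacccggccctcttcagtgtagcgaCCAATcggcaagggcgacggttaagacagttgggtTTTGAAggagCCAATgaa
Plk1, chr7:122159255-122159434, plus strand: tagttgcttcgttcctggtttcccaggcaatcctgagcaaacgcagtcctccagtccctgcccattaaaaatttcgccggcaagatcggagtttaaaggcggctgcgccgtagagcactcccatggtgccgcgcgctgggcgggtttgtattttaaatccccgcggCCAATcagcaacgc
Ccnb2, chr9:70421555-70421734, minus strand: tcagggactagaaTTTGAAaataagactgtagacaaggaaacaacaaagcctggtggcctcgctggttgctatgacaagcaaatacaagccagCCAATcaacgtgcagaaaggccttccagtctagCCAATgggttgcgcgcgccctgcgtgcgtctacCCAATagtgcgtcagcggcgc
Ccnb1, chr13:100786487-100786666, minus strand: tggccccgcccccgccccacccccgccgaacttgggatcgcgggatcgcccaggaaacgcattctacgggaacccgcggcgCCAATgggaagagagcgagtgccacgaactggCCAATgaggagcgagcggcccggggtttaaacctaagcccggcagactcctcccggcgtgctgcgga
Cdc20 had CCAAT 53 and 8 bases before its start with TTTGAA between them, at 18 bases. In Ccnb2, CCAAT stood 3 times, at 87, 54 and 21 bases, and TTTGAA lay farther out, at 167 bases. Plk1 had 1 CCAAT, at 14 bases, and Ccnb1 had 2, at 99 and 67 bases. Distances are from the RefSeq start. The starts of Cdc20 and Ccnb1 in GENCODE vM21 lie inside the printed windows, and the CCAAT nearest the RefSeq start of each lies within the GENCODE gene. A match of letters is a description and not a binding site.

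Depth was 16324184 to 20187736 fragments per library, read from the steps of low FPKM values. The 48 members together took 14005 and 16814 fragments in MPC EV myotubes at 24 h, 19516 and 20378 in control myotubes at 24 h, 8413 and 9402 in MPC EV myotubes at 12 h, and 12907 and 10904 in control myotubes at 12 h. The median member had 117 to 316 fragments, depending on the library. Of 12 myotube markers, 11 stood at 10.5 FPKM or more in each library (Myog, a differentiation factor of muscle, at 1851.0 to 3290.1 FPKM), while Tnnc2, the troponin C of fast muscle, was at 0.159 FPKM or less. The summed level of the 12 was 12739.1 to 20462.8 FPKM. Libraries of the same group correlated at 0.992 to 0.996 over all tested genes on the log2 scale, except the control libraries at 12 h, at 0.947. Mitochondrially encoded transcripts took 2.09% and 2.65% of FPKM in MPC EV myotubes at 24 h, 2.79% and 2.98% in control myotubes at 24 h, 4.81% and 4.15% in MPC EV myotubes at 12 h, and 4.38% and 1.56% in control myotubes at 12 h. The share was thus lower at 24 h than at 12 h, apart from control 12 h replicate 2, and its part in the differences between the times was not tested.

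Control 12 h replicate 2 stood apart for a set of the members themselves. For 12 of the 48 (Bub1, Ttk, Kif11, Kif20b, Cenpe, Cenpf, Ndc80, Top2a, Mki67, Ect2, Hmmr and Nusap1) it held under 50% of the FPKM of replicate 1. Mki67, which encodes the proliferation marker Ki-67, had 28 fragments there and 597 in replicate 1. Kif20b, a kinesin of late mitosis, and Cenpe, a kinetochore kinesin, had 0 fragments there, against 114 and 156 in replicate 1. Over the 44 tested members the difference of replicate 2 from replicate 1 had a Spearman rho of 0.67 with the GC content of the longest transcript and of -0.32 with its length, as a description across genes. The same was seen outside the list: 783 other genes with transcripts of at least 5000 bases and under 45% GC had a median difference of -1.15, against 0.09 over all tested genes. The fits were therefore repeated without that library, a choice planned with an earlier account of these data known. Of the calls of single members, those lost were the rise of Cdk1 in control and the lower levels of Aurkb and Mybl2 with MPC EVs at 12 h.

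**Figure D1:**
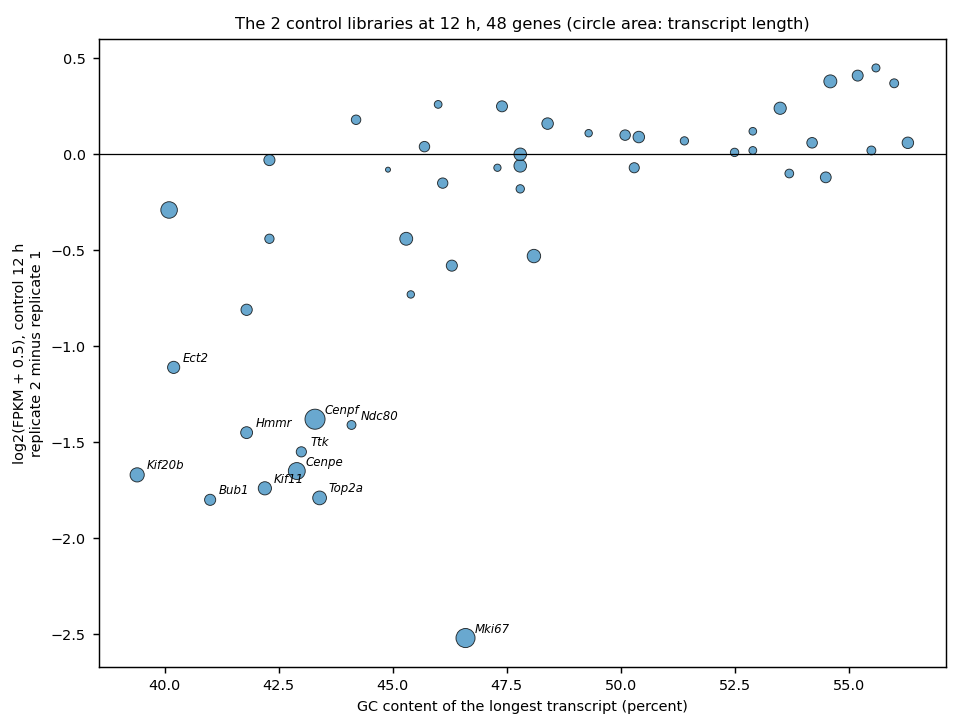
Difference between the control libraries at 12 h (log2(FPKM + 0.5), replicate 2 minus replicate 1) for each of the 48 genes, against the GC content of the gene's longest transcript in percent, with circle area in proportion to transcript length. GC-rich genes, at the right, lie near or above 0, such as Cdc20 at 0.45 and Plk1 at 0.37. The named genes, all below -1 and led by Mki67 at -2.52, lie to the left.

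In GENCODE vM21 (GRCm38), Ccnb1 lies at chr13:100778650-100786570 (minus strand), Ccnb2 lies at chr9:70407692-70421547 (minus strand), Cdk1 lies at chr10:69335146-69352938 (minus strand) and Spc24 lies at chr9:21755442-21760303 (minus strand). Members ranged widely in level. Bub3, a checkpoint protein that also works outside mitosis, was the highest, at 46.9 ± 0.818 FPKM in MPC EV myotubes at 24 h, 46.3 ± 1.32 in control myotubes at 24 h, 38.9 ± 2.27 in MPC EV myotubes at 12 h and 47.9 ± 0.767 in control myotubes at 12 h (SD, n = 2 each). Cenpf, a kinetochore protein with the longest transcript of the 48, was the lowest, at 0.207 ± 0.152 FPKM in MPC EV myotubes at 24 h, 0.281 ± 0.0939 in control myotubes at 24 h, 0.543 ± 0.0493 in MPC EV myotubes at 12 h and 0.426 ± 0.584 in control myotubes at 12 h. Summed over the 48 genes, the level was 327 and 342 FPKM in MPC EV myotubes at 24 h, 372 and 374 in control myotubes at 24 h, 179 and 183 in MPC EV myotubes at 12 h, and 251 and 225 in control myotubes at 12 h. The 4 groups did not overlap in this sum: control myotubes at 24 h were highest and MPC EV myotubes at 12 h lowest.

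**Figure D2:**
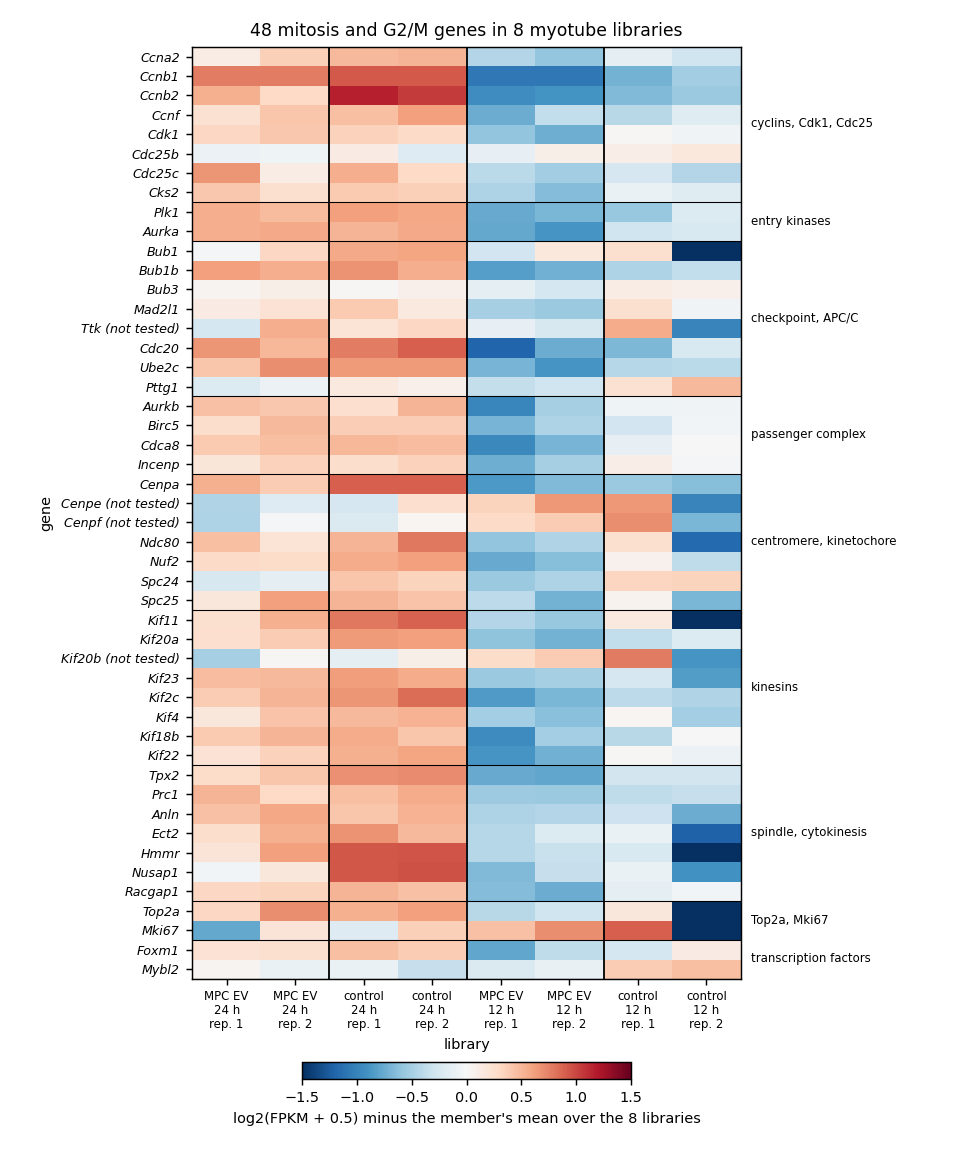
Level of each of the 48 genes (down the page, grouped by role) in each of the 8 libraries (across), as log2(FPKM + 0.5) minus the gene's mean over the libraries, with colours capped at 1.5 in both directions. Most genes are red at 24 h and blue at 12 h, with the deepest blue in MPC EV myotubes at 12 h and, for genes such as Bub1, Kif11, Top2a and Mki67, in control 12 h replicate 2.

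The first comparison was that of 24 h with 12 h in MPC EV myotubes. Most mitosis genes were higher at 24 h: 32 of the 44 tested members rose and 0 fell, where 12.9% of all tested genes rose and 5.4% fell. At an unadjusted p under 0.05, 33 were higher and 0 lower in limma, given without the share over all tested genes. With voom on fragments recovered from the FPKM values 30 were higher and 0 lower, where 12.0% and 5.25% of all tested genes were. Leaving out control 12 h replicate 2, which enters the shared estimate of spread, gave 39 higher and 0 lower, against 24.8% and 12.8% of all tested genes. Both libraries at 24 h were above both at 12 h for 41 members, against 47.1% of all tested genes. The median log2 difference was 0.95, against 0.10 over all tested genes. All 4 genes of the passenger complex rose, both entry kinases did, and so did 7 of 8 genes of the cyclin group, 6 of 7 kinesins, 5 of 7 checkpoint and APC/C genes, 4 of 7 spindle and cytokinesis genes and 3 of 5 centromere and kinetochore genes.

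In control myotubes the same genes were compared over the same hours. Of the 44, 24 rose and 1 fell, where 7.54% of all tested genes rose and 10.3% fell. The median log2 difference was 0.79, against 0.01 over all tested genes. Without control 12 h replicate 2, 28 rose and 1 fell, against 12.2% and 11.1% of all tested genes, and the median was 0.66. Voom also gave 28 higher and 1 lower, against 8.24% and 10.6%. In the cyclin group 6 of 8 rose and in the passenger complex 1 of 4. The member that fell was Mybl2, which encodes B-Myb, a transcription factor of the S and G2 phases.

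In both treatments 22 members rose: Ccna2, Ccnb1, Ccnb2, Ccnf, Cdk1, Cks2, Plk1, Aurka, Bub1b, Cdc20, Ube2c, Cdca8, Cenpa, Nuf2, Kif20a, Kif23, Kif2c, Kif22, Tpx2, Prc1, Anln and Racgap1. The joint share over all tested genes is not given, and is at most the 7.54% that rose in control. A further 10 passed in MPC EV myotubes alone (Aurkb, Bub3, Mad2l1, Cdc25c, Kif4, Kif18b, Spc24, Birc5, Incenp and Foxm1), and 2 in control myotubes alone (Hmmr and Nusap1). Passing in 1 treatment and not in the other does not show that the changes differ; that difference is tested with the MPC EV effects. Neither treatment passed for a rise in Bub1, Cdc25b, Kif11, Ndc80, Spc25, Top2a, Mki67, Ect2, Pttg1 and Mybl2. In the fit that leaves out control 12 h replicate 2, Kif11, Ndc80, Spc25, Top2a, Ect2, Hmmr and Nusap1 also passed with MPC EVs, Kif11, Kif18b, Ect2, Birc5 and Foxm1 also passed in control, and Cdk1 did not pass in control.

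**Figure D3:**
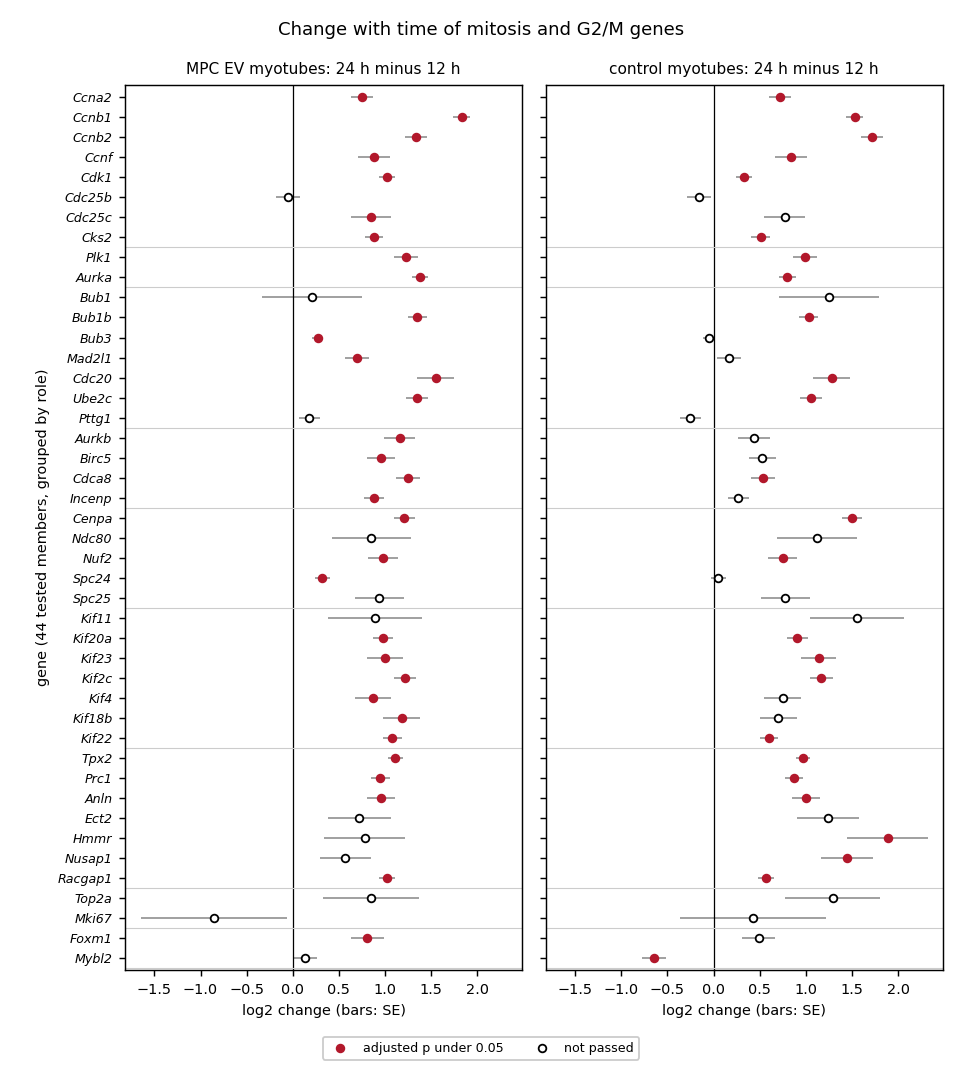
Log2 difference between 24 h and 12 h of the 44 tested genes (down the page, grouped by role), in MPC EV myotubes (left) and control myotubes (right), on the log2(FPKM + 0.5) scale with the SE as bars; filled points passed an adjusted p of 0.05. Values lie between -0.85 (Mki67) and 1.83 (Ccnb1) in MPC EV myotubes and between -0.64 (Mybl2) and 1.89 (Hmmr) in control myotubes.

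Ccnb1 encodes cyclin B1, the main partner of Cdk1 at mitotic entry. It had 13 and 13 FPKM in MPC EV myotubes at 24 h, 14.6 and 14.5 in control myotubes at 24 h, 3.29 and 3.29 in MPC EV myotubes at 12 h, and 4.38 and 5.04 in control myotubes at 12 h. All 4 libraries at 24 h were above all 4 at 12 h, and the treatments did not overlap at either time. The rise was 1.83 ± 0.09 in MPC EV myotubes (limma, adjusted p = 0.000687) and 1.53 ± 0.09 in control myotubes (adjusted p = 0.000446), where leaving out control 12 h replicate 2 gave 1.62 ± 0.09.

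Ccnb2 encodes cyclin B2, the other mitotic B-type cyclin. It had 6.0 and 5.01 FPKM in MPC EV myotubes at 24 h, 9.55 and 8.74 in control myotubes at 24 h, 1.84 and 1.91 in MPC EV myotubes at 12 h, and 2.32 and 2.55 in control myotubes at 12 h. Here too the times were fully apart. The rise was 1.34 ± 0.12 in MPC EV myotubes (limma, adjusted p = 0.00195) and 1.72 ± 0.12 in control myotubes (adjusted p = 0.000618).

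Cdc20, the mitotic activator of the APC/C, had 17.8 and 15.8 FPKM in MPC EV myotubes at 24 h, 19.2 and 20.9 in control myotubes at 24 h, 4.54 and 6.39 in MPC EV myotubes at 12 h, and 6.73 and 9.36 in control myotubes at 12 h. It rose by 1.55 ± 0.20 in MPC EV myotubes (limma, adjusted p = 0.00533) and by 1.28 ± 0.20 in control myotubes (adjusted p = 0.00827). The times did not overlap in either treatment. Ube2c, the conjugating enzyme that works with the APC/C, rose by 1.35 ± 0.12 in MPC EV myotubes and by 1.06 ± 0.12 in control myotubes. Bub1b encodes BubR1, a subunit of the checkpoint complex that inhibits Cdc20. It had 6.95 and 6.64 FPKM in MPC EV myotubes at 24 h, 7.28 and 6.64 in control myotubes at 24 h, 2.25 and 2.47 in MPC EV myotubes at 12 h, and 3.04 and 3.28 in control myotubes at 12 h. The treatments overlapped at 24 h and not at 12 h, and the rise was 1.35 ± 0.10 with MPC EVs (limma, adjusted p = 0.00117) and 1.03 ± 0.10 in control (adjusted p = 0.0017).

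Aurka encodes Aurora A, the kinase of centrosomes and spindle poles. It had 9.0 and 9.13 FPKM in MPC EV myotubes at 24 h, 8.74 and 9.15 in control myotubes at 24 h, 3.33 and 3.03 in MPC EV myotubes at 12 h, and 4.79 and 5.05 in control myotubes at 12 h. The treatments overlapped at 24 h, and at 12 h both MPC EV libraries were below both controls. The rise was 1.38 ± 0.09 with MPC EVs (limma, adjusted p = 0.00081) and 0.80 ± 0.09 in control (adjusted p = 0.00239). Plk1, the Polo kinase of mitotic entry, rose by 1.23 ± 0.13 with MPC EVs and by 0.99 ± 0.13 in control. Tpx2, which activates Aurora A on the spindle, rose by 1.11 ± 0.08 with MPC EVs and by 0.97 ± 0.08 in control.

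Cenpa encodes the histone H3 variant that marks centromeres. It had 8.64 and 7.72 FPKM in MPC EV myotubes at 24 h, 11.3 and 11.3 in control myotubes at 24 h, 2.98 and 3.5 in MPC EV myotubes at 12 h, and 3.78 and 3.57 in control myotubes at 12 h. The rise was 1.21 ± 0.11 with MPC EVs (limma, adjusted p = 0.00193) and 1.5 ± 0.11 in control (adjusted p = 0.000633). Times and treatments were all apart. Of the Ndc80 complex, which binds microtubules at the kinetochore, Nuf2 rose in both treatments, Spc24 passed with MPC EVs alone, and Ndc80 and Spc25 passed in neither, with differences of 0.85 ± 0.43 and 0.94 ± 0.27 with MPC EVs and of 1.12 ± 0.43 and 0.78 ± 0.27 in control.

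Of 7 tested kinesins, 6 rose with MPC EVs and 4 in control, and of 7 tested spindle and cytokinesis genes, 4 rose with MPC EVs and 6 in control. Kif23, a subunit of centralspindlin, rose by 1.00 ± 0.19 with MPC EVs and by 1.14 ± 0.19 in control. Its partner Racgap1 rose by 1.02 ± 0.09 with MPC EVs and by 0.57 ± 0.09 in control. Prc1, which bundles microtubules of the midzone, rose by 0.95 ± 0.10 with MPC EVs and by 0.87 ± 0.10 in control. Anln, the anillin of the cleavage furrow, rose by 0.96 ± 0.15 with MPC EVs and by 1.00 ± 0.15 in control. Kif2c, a kinesin that takes microtubules apart, rose by 1.22 ± 0.12 with MPC EVs and by 1.17 ± 0.12 in control. Ect2, which activates RhoA at the furrow, passed in neither, with 0.72 ± 0.34 with MPC EVs and 1.24 ± 0.34 in control. When control 12 h replicate 2 was left out, Ect2 passed in both, with 0.72 ± 0.14 with MPC EVs (limma, adjusted p = 0.00658) and 0.68 ± 0.17 in control (adjusted p = 0.0253).

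Hmmr, a spindle protein also known as RHAMM, had 2.08 and 2.97 FPKM in MPC EV myotubes at 24 h, 3.81 and 3.84 in control myotubes at 24 h, 1.19 and 1.29 in MPC EV myotubes at 12 h, and 1.43 and 0.207 in control myotubes at 12 h. The difference between times was 0.78 ± 0.44 with MPC EVs (limma, adjusted p = 0.263) and 1.89 ± 0.44 in control (adjusted p = 0.032). Both passed in limma without control 12 h replicate 2, at 0.78 ± 0.16 with MPC EVs (adjusted p = 0.00869) and 1.17 ± 0.20 in control (adjusted p = 0.00595). Top2a, the topoisomerase that untangles chromosomes, had 12.9 and 17.0 FPKM in MPC EV myotubes at 24 h, 15.1 and 16.1 in control myotubes at 24 h, 7.62 and 8.31 in MPC EV myotubes at 12 h, and 11.7 and 3.03 in control myotubes at 12 h. Its difference between times was 0.85 ± 0.52 with MPC EVs (limma, adjusted p = 0.303) and 1.29 ± 0.52 in control (adjusted p = 0.143). Without that library Top2a passed with MPC EVs, at 0.85 ± 0.12 (limma, adjusted p = 0.00211), and did not in control, at 0.39 ± 0.15 (adjusted p = 0.104). All libraries at 24 h were above all at 12 h for both genes.

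A few members had negative differences between the times with MPC EVs. Mki67, the proliferation marker, had 0.651 and 1.74 FPKM in MPC EV myotubes at 24 h, 1.21 and 2.01 in control myotubes at 24 h, 2.16 and 2.67 in MPC EV myotubes at 12 h, and 3.16 and 0.14 in control myotubes at 12 h. In MPC EV myotubes both libraries at 24 h were below both at 12 h, and the difference of -0.85 ± 0.79 did not pass (limma, adjusted p = 0.494, or -0.85 ± 0.32 and adjusted p = 0.0697 without control 12 h replicate 2). Cenpe, Cenpf and Kif20b, which were not tested, had differences of -0.82, -0.58 and -0.57 in MPC EV myotubes. For all 4 genes MPC EV 24 h replicate 1 was below replicate 2, at 107 fragments against 316 for Mki67, 29 against 52 for Cenpe, 18 against 63 for Cenpf and 14 against 44 for Kif20b. These genes have long transcripts, and over the 44 tested members the difference of replicate 1 from replicate 2 had a Spearman rho of -0.50 with transcript length. The part of that difference in the values of Mki67 was not tested.

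The transcription factors among the members are Foxm1 and Mybl2. Foxm1, the transcription factor of G2/M genes, had 3.93 and 3.97 FPKM in MPC EV myotubes at 24 h, 4.71 and 4.46 in control myotubes at 24 h, 1.72 and 2.42 in MPC EV myotubes at 12 h, and 2.67 and 3.62 in control myotubes at 12 h. Times did not overlap, and the rise was 0.81 ± 0.18 with MPC EVs (limma, adjusted p = 0.0285), while 0.49 ± 0.18 in control did not pass (adjusted p = 0.111, and 0.68 ± 0.18 with adjusted p = 0.0303 without control 12 h replicate 2). Mybl2 had 2.23 and 1.99 FPKM in MPC EV myotubes at 24 h, 1.99 and 1.59 in control myotubes at 24 h, 1.79 and 1.97 in MPC EV myotubes at 12 h, and 2.98 and 3.13 in control myotubes at 12 h. Only its control libraries at 12 h stood above the rest. It fell by 0.64 ± 0.13 between the times in control myotubes (limma, adjusted p = 0.0224, and adjusted p = 0.0418 without control 12 h replicate 2). With MPC EVs the difference was 0.13 ± 0.13 (limma, adjusted p = 0.524). Cdc25b, a phosphatase that activates Cdk1, differed by -0.05 ± 0.13 between the times with MPC EVs and by -0.16 ± 0.13 in control, and neither value passed.

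The count of rises depended on single libraries of the groups compared. Shares over all tested genes are not given for these fits. Fewer calls of members therefore cannot be told apart from fewer calls over all genes. With MPC EVs it was 19, 19 and 17 without MPC EV 12 h replicate 1, MPC EV 24 h replicate 1 and MPC EV 24 h replicate 2. In control it was 11 without either control library at 24 h, and Mybl2 then did not pass. Libraries were not rescaled against each other. Median-ratio scaling moved the median of all tested genes in MPC EV myotubes by more than 0.1, to -0.01, and the split over all genes to 816 higher (7.43%) and 839 lower (7.64%), where FPKM as deposited gave 1420 and 593. Of the members, 28 then rose and 0 fell, with a median of 0.85.

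At 24 h few of the genes passed the test between MPC EV and control myotubes. Of the 44 members, 2 were lower in MPC EV myotubes than in control myotubes, Ccnb2 and Spc24, where 0.956% of all tested genes were lower, and 0 were higher, where 2.61% were. At an unadjusted p under 0.05, 8 were lower and 0 higher in limma, given without the share over all tested genes. Voom gave 2 lower and 0 higher, against 0.838% and 2.46% of all tested genes. The median was -0.15, against -0.03 over all tested genes, and 37 of the 44 values were below 0. Both MPC EV libraries were below both controls for 24 members, against 30.2% of all tested genes.

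Ccnb2, with the FPKM given above, fell by 0.69 ± 0.12 with MPC EVs at 24 h (limma, adjusted p = 0.0361). Spc24, a subunit of the Ndc80 complex on its centromere side, had 5.45 and 5.85 FPKM in MPC EV myotubes at 24 h, 8.84 and 8.3 in control myotubes at 24 h, 4.28 and 4.57 in MPC EV myotubes at 12 h, and 8.23 and 8.33 in control myotubes at 12 h. It fell by 0.56 ± 0.08 at 24 h (limma, adjusted p = 0.0268). MPC EV and control libraries were fully apart for both genes at 24 h. Nusap1, a microtubule-bundling protein, had 1.23 and 1.5 FPKM with MPC EVs at 24 h and 2.88 and 2.95 in control at 24 h, a difference of -0.88 ± 0.28 that did not pass (limma, adjusted p = 0.196). With control 12 h replicate 2 left out, 4 members were lower and 0 higher, against 2.94% and 5.32% of all tested genes. Nusap1 (limma, adjusted p = 0.018) and Cenpa (-0.45 ± 0.10, adjusted p = 0.0399) were then added. The difference was near 0 for Cdk1 (0.05 ± 0.09, 95% interval -0.16 to 0.25), Aurka (0.02 ± 0.09, -0.19 to 0.23) and Bub3 (0.02 ± 0.06, -0.13 to 0.17). The 2 calls were lost when any MPC EV library or either control library at 24 h was left out. Shares over all tested genes are not given for those fits.

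At 12 h the members that passed between MPC EV and control myotubes were all lower with MPC EVs. Of the 44, 15 fell and 0 rose, where 14.3% of all tested genes fell and 4.36% rose. At an unadjusted p under 0.05, 26 were lower and 0 higher in limma, given without the share over all tested genes. Voom gave 13 lower and 0 higher, against 13.5% and 4.6% of all tested genes. The 15 were Ccnb1, Cdk1, Cks2, Aurka, Bub3, Mad2l1, Pttg1, Aurkb, Cdca8, Incenp, Spc24, Kif22, Tpx2, Racgap1 and Mybl2. The median was -0.35, against -0.12 over all tested genes. By role, 3 of 4 passenger complex genes fell, 3 of 8 genes of the cyclin group, 3 of 7 checkpoint and APC/C genes, 2 of 7 spindle and cytokinesis genes and 1 of 7 kinesins.

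**Figure D4:**
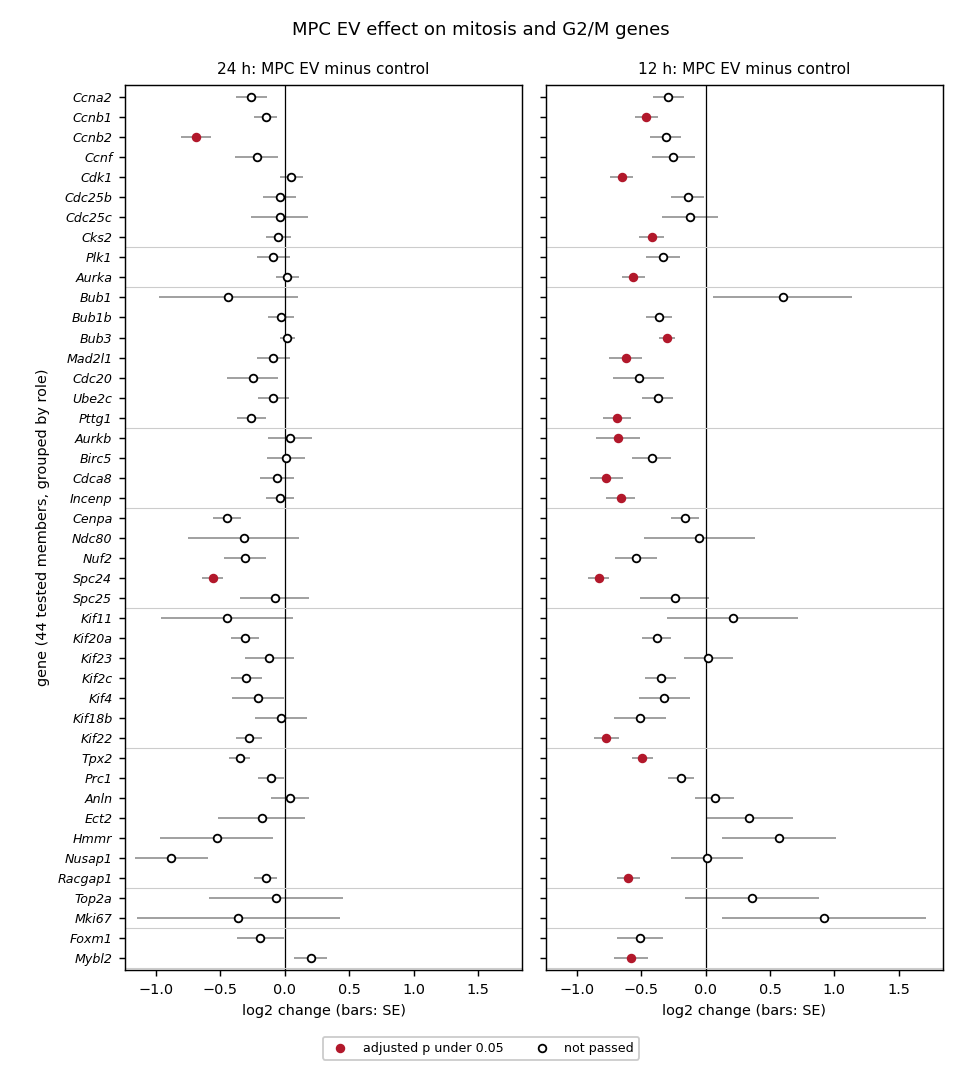
Log2 difference between MPC EV and control myotubes of the 44 tested genes (down the page, grouped by role) at 24 h (left) and 12 h (right), on the log2(FPKM + 0.5) scale with the SE as bars; filled points passed an adjusted p of 0.05. At 24 h 2 genes are filled, Ccnb2 and Spc24, and at 12 h 15 are, all left of 0, while the genes right of 0 at 12 h, such as Mki67 at 0.92, have wide bars.

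Of the 15, Spc24 fell the most, by 0.83 ± 0.08 at 12 h (limma, adjusted p = 0.00493), and was the only member that passed as lower at both times. Cdk1, the catalytic kinase of mitotic entry, had 10.0 and 10.7 FPKM in MPC EV myotubes at 24 h, 10.2 and 9.83 in control myotubes at 24 h, 5.08 and 4.59 in MPC EV myotubes at 12 h, and 8.03 and 7.66 in control myotubes at 12 h. The treatments overlapped at 24 h and were apart at 12 h, where Cdk1 fell by 0.65 ± 0.09 (limma, adjusted p = 0.00854, and 0.00674 without control 12 h replicate 2). Between the times Cdk1 rose by 1.02 ± 0.09 with MPC EVs (limma, adjusted p = 0.00169) and by 0.33 ± 0.09 in control (adjusted p = 0.0438), and the rise in control was not past the threshold without control 12 h replicate 2 (0.30 ± 0.10, adjusted p = 0.0783).

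Kif22, a chromosome-bound kinesin that pushes arms towards the plate, had 5.43 and 5.98 FPKM in MPC EV myotubes at 24 h, 6.91 and 7.2 in control myotubes at 24 h, 2.27 and 2.59 in MPC EV myotubes at 12 h, and 4.66 and 4.32 in control myotubes at 12 h. It fell by 0.77 ± 0.10 at 12 h (limma, adjusted p = 0.00909), and at 24 h the difference was -0.28 ± 0.10 (adjusted p = 0.272). MPC EV libraries were below controls at both times. It rose between the times by 1.08 ± 0.10 with MPC EVs and by 0.60 ± 0.10 in control.

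The passenger complex, made of the kinase Aurora B (Aurkb), its scaffold Incenp, borealin (Cdca8) and survivin (Birc5), was close to control at 24 h, with differences from -0.06 to 0.04, and lower at 12 h, with differences from -0.77 to -0.42. Cdca8 had 3.74 and 3.92 FPKM in MPC EV myotubes at 24 h, 4.08 and 3.94 in control myotubes at 24 h, 1.15 and 1.49 in MPC EV myotubes at 12 h, and 2.46 and 2.73 in control myotubes at 12 h. At 12 h both MPC EV libraries were below both controls, and Cdca8 fell by 0.77 ± 0.13 (limma, adjusted p = 0.0156). Incenp fell by 0.66 ± 0.11 and Aurkb by 0.68 ± 0.17, with the call of Aurkb lost without control 12 h replicate 2 (limma, adjusted p = 0.0665). Birc5 did not pass (-0.42 ± 0.15, limma, adjusted p = 0.0867).

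Of the remaining 12 h calls, Pttg1, which encodes securin, the inhibitor of separase, fell by 0.69 ± 0.11. Mad2l1, the checkpoint protein Mad2, fell by 0.62 ± 0.13, Racgap1 by 0.60 ± 0.09 and Mybl2 by 0.58 ± 0.13 (-0.55 ± 0.18 without control 12 h replicate 2, limma, adjusted p = 0.072). Aurka fell by 0.56 ± 0.09, Tpx2 by 0.49 ± 0.08, Ccnb1 by 0.46 ± 0.09 and Cks2, a small Cdk-binding subunit, by 0.42 ± 0.10. Bub3 fell least among those that passed, by 0.30 ± 0.06. Pttg1 and Mybl2 did not pass between the times with MPC EVs, and the other 13 members lower at 12 h all rose between the times in that treatment, a comparison that shares the MPC EV libraries at 12 h.

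Without control 12 h replicate 2, 16 members were lower at 12 h and 0 higher, against 10.4% and 5.75% of all tested genes: 13 of the 15 remained, Aurkb and Mybl2 did not, and Kif11, Ndc80 and Nuf2 were added. All 44 values were then below 0, with a median of -0.37, whereas with that library 9 were above 0 (Bub1, Kif11, Kif23, Top2a, Mki67, Anln, Ect2, Hmmr and Nusap1). Kif11, the motor that separates spindle poles, had 1.51 and 1.34 FPKM in MPC EV myotubes at 12 h and 2.53 and 0.408 in control myotubes at 12 h, and its difference was -0.66 ± 0.17 without that library (limma, adjusted p = 0.0404) and 0.21 ± 0.51 with it (adjusted p = 0.77). The count was 23 lower and 7 higher, against 31.8% and 19.9% of all tested genes, without control 12 h replicate 1, which leaves the library that stands apart as the lone control at 12 h, assumed to vary like the other groups. The count lower was below 15 when any MPC EV library or either control library at 24 h was left out. It was 0 in a fit to the 4 libraries at 12 h alone, where 2 degrees of freedom remain. Shares over all tested genes are not given for these fits, so fewer calls of members cannot be told apart from fewer calls over all genes.

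The balance of calls over all genes at 12 h depended on scaling. FPKM as deposited gave 479 higher and 1566 lower, and median-ratio scaling 736 (6.7%) and 548 (4.99%), with the median of all tested genes at 0.01. Of the members, 10 were then lower and 0 higher, with a median of -0.24. Correcting each library for GC and length of transcripts left 8 lower and 0 higher, against 324 lower (2.95%) and 409 higher (3.72%) over all tested genes. With that correction and without control 12 h replicate 2, 12 were lower and 0 higher, against 5.15% and 7.39%, all 44 values were below 0 and their median was -0.29.

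The MPC EV effects at the different times were compared with each other in the same fit. By arithmetic the same contrast tests whether the change between the times differed between treatments, and all comparisons share libraries. No member passed: limma called 0 of 44 and 0 of 10981 genes (0.0%), and so did voom. Without control 12 h replicate 2 limma called 0 members, against 0.0273% of all tested genes with a higher effect at 24 h and 0.0% with a lower one. At an unadjusted p under 0.05, 13 members had a higher effect at 24 h than at 12 h and 0 a lower one, by both tools, where 18.3% of all tested genes were under 0.05 in limma in either direction. The 13 were Ccnb1, Cdk1, Cks2, Aurka, Bub3, Mad2l1, Pttg1, Aurkb, Cdca8, Incenp, Kif22, Racgap1 and Mybl2. The effect at 24 h was above that at 12 h in 32 of 44 members, in 26 with median-ratio scaling and in 36 without control 12 h replicate 2. All tested genes leaned the same way in part: the median difference was 0.20 in members, against 0.11 over all tested genes. With median-ratio scaling these medians were 0.10 and 0.00, and without control 12 h replicate 2 they were 0.24 and 0.07. The share of all tested genes with the higher effect at 24 h is not given. The smallest adjusted p was that of Cdk1, whose effect was 0.05 at 24 h and -0.65 at 12 h, a difference of 0.69 ± 0.12 (95% interval 0.40 to 0.98, limma, adjusted p = 0.121). Mybl2 had effects of 0.20 at 24 h and -0.58 at 12 h, a difference of 0.78 ± 0.19 (0.32 to 1.23, limma, adjusted p = 0.147). Cdca8 had effects of -0.06 at 24 h and -0.77 at 12 h, a difference of 0.71 ± 0.18 (0.27 to 1.15, limma, adjusted p = 0.151). For Ccnb2 the effect was the larger at 24 h, -0.69, against -0.31 at 12 h, and that difference of -0.38 ± 0.17 did not pass either (-0.78 to 0.02, limma, adjusted p = 0.291). Spc24 had effects of -0.56 at 24 h and -0.83 at 12 h, and the interval of its difference ran from -0.02 to 0.57. Without control 12 h replicate 1, which leaves the library that stands apart as the lone control at 12 h, 10 members had a higher and 8 a lower effect at 24 h than at 12 h, against 17.8% and 15.6% of all tested genes.

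**Figure D5:**
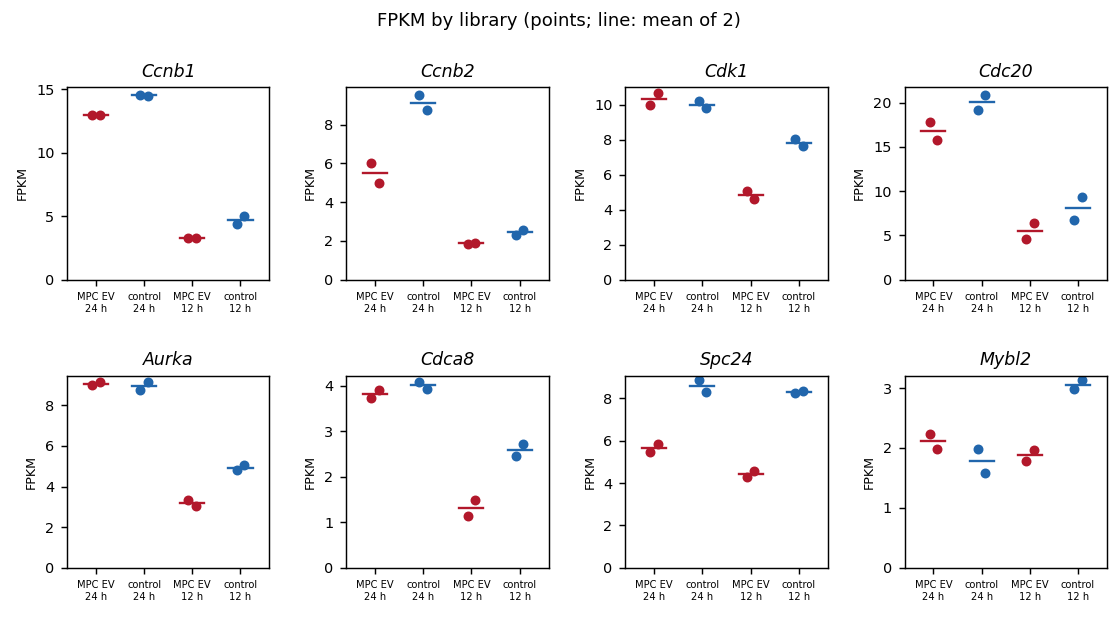
FPKM (linear axis from 0) of 8 members in each library, with MPC EV libraries in red and control libraries in blue, points for the 2 libraries of a group and a line for their mean. Cdk1, Aurka and Cdca8 lie near control at 24 h and below control at 12 h, Ccnb2 is below control at 24 h, Spc24 is below control at both times, and Mybl2 is highest in control myotubes at 12 h.

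Further genes of mitosis were taken from a list outside the 48. Of 42 tested G2/M genes in it, 24 rose and 0 fell between the times with MPC EVs, and 14 rose and 0 fell in control. At 12 h 12 were lower with MPC EVs and 0 higher, and at 24 h 1 was lower, Stmn1, which encodes the microtubule-destabilizing stathmin. Over all tested genes 12.9% rose and 5.4% fell with MPC EVs, and 7.54% rose and 10.3% fell in control. With MPC EVs 14.3% of all tested genes were lower and 4.36% higher at 12 h, and 0.956% lower and 2.61% higher at 24 h. These shares hold for the same fit of the lists that follow. Without control 12 h replicate 2, 24.8% rose and 12.8% fell with MPC EVs, and 12.2% rose and 11.1% fell in control. In that fit 10.4% were lower and 5.75% higher with MPC EVs at 12 h, and 2.94% lower and 5.32% higher at 24 h. For changes between the times with the GC and length correction, no share over all tested genes is given. Leaving out control 12 h replicate 2, 31 rose with MPC EVs and 13 in control between the times, 10 were lower at 12 h, and 1 was lower and 1 higher at 24 h. With all 8 libraries corrected for GC and length of transcripts, 18 rose with MPC EVs and 12 in control. With that correction 4 were lower at 12 h, against 2.95% of all tested genes, and 0 at 24 h. Stmn1 had 50.5 and 46.7 FPKM in MPC EV myotubes at 24 h, 64.6 and 63.4 in control myotubes at 24 h, 33.2 and 31.8 in MPC EV myotubes at 12 h, and 65.5 and 63.2 in control myotubes at 12 h. It was lower with MPC EVs at both times, by 0.40 ± 0.06 at 24 h (limma, adjusted p = 0.0305, and 0.0504 with the GC and length correction) and 0.97 ± 0.06 at 12 h (adjusted p = 0.00245).

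Genes of DNA replication, an earlier step of the cycle, were counted in the same way. Of 35 tested, 13 rose and 0 fell between the times with MPC EVs, and 0 rose and 10 fell in control. The test of the difference between the treatments called 0 of them in limma and in voom, with 30 higher and 0 lower at an unadjusted p under 0.05 in limma. At 12 h 24 were lower with MPC EVs and 0 higher, with a median of -0.48. At 24 h limma called 0 in either direction, with 7 higher and 2 lower at an unadjusted p under 0.05, and voom called 1 higher. When control 12 h replicate 2 was left out, 17 rose and 1 fell with MPC EVs, 12 fell in control, 17 were lower at 12 h, and 2 were higher and 1 lower at 24 h. Mcm6, a subunit of the replicative helicase, had 12.5 and 12.4 FPKM in MPC EV myotubes at 24 h, 10.6 and 10.9 in control myotubes at 24 h, 8.63 and 9.15 in MPC EV myotubes at 12 h, and 14.6 and 14.0 in control myotubes at 12 h. Cdc6, which loads that helicase, fell by 1.11 ± 0.15 between the times in control myotubes (limma, adjusted p = 0.00554). With each library corrected for GC and length of transcripts, 5 replication genes rose with MPC EVs, 10 fell in control and 10 were lower at 12 h.

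Among 10 inhibitors of the cycle, 4 rose and 2 fell between the times with MPC EVs, and 3 rose and 2 fell in control. Cdkn1c, the Cdk inhibitor p57, fell in both, with 82.7 and 65.5 FPKM in MPC EV myotubes at 24 h, 43.9 and 49.4 in control myotubes at 24 h, 231 and 214 in MPC EV myotubes at 12 h, and 183 and 208 in control myotubes at 12 h. Its change was -1.59 ± 0.13 with MPC EVs (limma, adjusted p = 0.00161) and -2.06 ± 0.13 in control (adjusted p = 0.000504). Cdkn1a, the Cdk inhibitor p21, also fell in both. Wee1, the kinase that holds Cdk1 inactive, rose in both and was lower with MPC EVs at 12 h (-0.42 ± 0.11, limma, adjusted p = 0.0456, and 0.0337 without control 12 h replicate 2). Of 16 tested genes of the pocket protein, E2F and MuvB list, 3 rose and 1 fell with MPC EVs between the times, 4 fell in control, and at 12 h 1 was higher with MPC EVs and 2 lower. Lin37, a MuvB subunit, was lower with MPC EVs at 12 h by 0.93 ± 0.08 (limma, adjusted p = 0.0033), rose by 0.38 ± 0.08 between the times with MPC EVs and fell by 0.49 ± 0.08 in control. Neither of the changes of Lin37 between the times passed with the GC and length correction (limma, adjusted p = 0.381 with MPC EVs and 0.116 in control). In the fit without control 12 h replicate 2, 6 inhibitors rose with MPC EVs, 5 genes of the E2F and MuvB list rose and 2 fell, and at 12 h 2 of that list were higher and 3 lower.

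Marker lists give the setting for these changes. The summed level of 13 progenitor markers was 801 and 797 FPKM in MPC EV myotubes at 24 h, 756 and 758 in control myotubes at 24 h, 1036.1 and 1081.1 in MPC EV myotubes at 12 h, and 1076.3 and 1151.3 in control myotubes at 12 h, so it was lower at 24 h, when the mitosis genes were higher. Most of that sum was Myod1, at 414 to 664 FPKM, and Itga7, at 179 to 270. Some other markers of the list were higher at 24 h. Pax7, the factor of quiescent and activated progenitors, had 6.79 and 7.56 FPKM in MPC EV myotubes at 24 h, 5.82 and 5.36 in control myotubes at 24 h, 5.05 and 6.45 in MPC EV myotubes at 12 h, and 4.29 and 5.08 in control myotubes at 12 h, so both libraries at 24 h were above both at 12 h in each treatment. The same held for Pax3, Myf5 and Notch3, where in MPC EV myotubes it held for 47.1% of all tested genes. The share in control myotubes is not given, so the separation there is a description only. Pax7 did not pass between the times in either treatment. Calcr was below 0.1 FPKM in all libraries. Of 10 tested progenitor markers, 0 rose and 3 fell between the times with MPC EVs, and 2 rose (Myf5 and Notch3) and 6 fell in control. Leaving out control 12 h replicate 2, 2 rose (Myf5 and Pax3) and 5 fell with MPC EVs, and 2 rose and 6 fell in control. The 12 myotube markers summed to 17955.4 and 16149.9 FPKM in MPC EV myotubes at 24 h, 12739.1 and 13012.9 in control myotubes at 24 h, 20462.8 and 19095.9 in MPC EV myotubes at 12 h, and 16956.6 and 19901.4 in control myotubes at 12 h. Of 11 tested, 5 were higher with MPC EVs at 24 h and 3 at 12 h, 0 were lower, and 4 fell between the times with MPC EVs and 7 in control. Leaving out that library, 7 were higher with MPC EVs at 24 h and 5 at 12 h, 5 fell between the times with MPC EVs, and 6 fell and 1 rose in control. Fibroblast markers summed to 22.4 and 22.0 FPKM in MPC EV myotubes at 24 h, 25 and 27.2 in control myotubes at 24 h, 16.9 and 18.7 in MPC EV myotubes at 12 h, and 19.1 and 21.3 in control myotubes at 12 h, the same order of groups as the summed mitosis genes, with Lum below 0.1 FPKM throughout. Most of that sum, and its order, was that of Col3a1 alone, at 14.5 to 22.7 FPKM. Dcn, Thy1, Pi16 and Dpt were at 0.34 FPKM or less, and 2 of the 8 fibroblast markers were tested. Smooth muscle and pericyte markers summed to 96.2 to 198 FPKM, of which Tagln took 90.8 to 192. Myh11 was at 0.176 FPKM or less, Cnn1 at 0.17 or less and Kcnj8 below 0.1 throughout. Endothelial markers summed to at most 0.507, macrophage markers to at most 3.0 with Ptprc, Csf1r and Adgre1 below 0.1, adipocyte markers to at most 5.72 with Cidec at 0, and Schwann cell markers to at most 1.42. The part of unfused progenitors or fibroblasts in the levels of the mitosis genes was not tested.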

How the data were processed

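RNA sequencing of 8 libraries in 4 groups of 2 was analysed. The deposited table holds FPKM per gene, which the authors made from their reads. Per the submitters' processing notes they used HISAT2, DESeq2 (version given as 2) and the build mm10. Not given in the sources used here are the counting tool, the annotation and any filter. Gene symbols and coordinates were matched by ID to GENCODE vM21 (GRCm38), and 785 of 35275 IDs had no symbol. Libraries were not rescaled. Log2 values of the deposited FPKM plus 0.5 were fitted with limma 3.58.1 (R 4.3.3, trended prior, 4 residual degrees of freedom, two-sided) for 5 comparisons, and 95% intervals are from that fit. Figures and counts used Python 3.11.15, numpy 2.4.6, pandas 2.3.3, scipy 1.17.1 and matplotlib 3.10.9.

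FPKM values were whole multiples of a library's worth of 1 fragment, within 0.03, for 10979 of the 10981 tested genes (99.98%). These fragments gave the depths, and voom was run on them. Voom and the joint use of the GC and length correction without control 12 h replicate 2 were chosen after seeing the data. For that correction, the difference of a library from the mean over all 8 was regressed on transcript GC content and log2 length. The code was tested on simulated data.

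The members and lists were chosen with earlier results of these data known. Values in every library and full statistics were given to the 3 members with the smallest adjusted p and the 3 with the largest change among those called in each comparison, and to the member with the highest mean FPKM of any role without one. Plk1, Kif11, Mki67, Nusap1, Mybl2, Bub3, Cenpf and the other members described were picked from the same 48 by role. Of other lists, up to 3 called genes per comparison with the smallest adjusted p could be named. Cdkn1a, Smc2, Smc3, Smc4 and Stag2 were named outside that rule, after their values were seen. Other alternatives changed the pseudocount, the filter, the scaling, the variance trend, the libraries and the replicate block.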

Additional observations from a re-analysis of the deposited data

How the results depend on the processing

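The 74 calls of single members were refitted under 1520 alternatives. In 1228 the call was past the threshold in the same direction, in 292 it kept its direction and was not past the threshold, and in 0 it turned. For the count lower with MPC EVs at 24 h (2), a minimum mean of 5 FPKM gave 1, no filter 0, the GC and length correction 1, that correction without control 12 h replicate 2 gave 4, and a fit to 24 h alone 4. Leaving out 1 library at a time gave 0 to 5. For the count lower at 12 h (15) the values were 8 with the GC and length correction and 0 in a fit to 12 h alone, and 2 to 23 with 1 library left out, where 0 to 7 were higher. The difference of the MPC EV effects gave 0 to 10 members higher and 0 to 8 lower. The rises with MPC EVs (32) came to 16 at a minimum of 5 FPKM, where 19 members were tested, and 17 to 39 with 1 library left out. The rises in control (24) came to 12 at that minimum, 11 in a fit to control alone, and 11 to 33 with 1 library left out. The 1 fall in control, Mybl2, gave 0 at that minimum, with no filter and in control alone, and 0 to 2 with 1 library left out. The cause of these shifts was not tested, beyond the fewer genes or libraries that some alternatives hold. Shares over all tested genes are given above for some of these fits only. Depth limits the low members: the 4 that were not tested held 0 to 175 fragments per library.

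Groups of the same time share replicate numbers. Samples with the same number deviated together at 24 h (r = 0.241 over 10981 genes) and not at 12 h (r = -0.0125), so the numbers were not taken to pair the samples. With the replicate block, which leaves 2 residual degrees of freedom, 0 members were lower at 24 h and 2 at 12 h, 25 rose with MPC EVs, and 18 rose and 0 fell in control.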

Other observations

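Lists of other parts of the cell cycle were counted in the same way. Of 7 tested genes of the G1 phase, 2 were higher with MPC EVs at 24 h, both D-type cyclins. Ccnd1, which encodes cyclin D1, had 87.4 and 86.5 FPKM in MPC EV myotubes at 24 h, 51.3 and 45.8 in control myotubes at 24 h, 74.0 and 82.7 in MPC EV myotubes at 12 h, and 71.4 and 81.5 in control myotubes at 12 h. The control libraries at 24 h were below the other 6, and Ccnd1 was higher with MPC EVs at 24 h by 0.84 ± 0.10 (limma, adjusted p = 0.0103). Ccnd3, which encodes cyclin D3, the D-type cyclin of differentiated muscle, was higher with MPC EVs at both times, by 0.48 ± 0.06 at 24 h (limma, adjusted p = 0.0171) and 0.42 ± 0.06 at 12 h (adjusted p = 0.0129). It fell between the times by 1.00 ± 0.06 with MPC EVs and by 1.06 ± 0.06 in control, while most mitosis genes rose. Cdk4, the kinase partner of these cyclins, and Myc were lower with MPC EVs at 12 h, by 0.51 ± 0.07 and 0.47 ± 0.11. The call of Myc was lost without control 12 h replicate 2 (-0.40 ± 0.12, limma, adjusted p = 0.0564) and with the GC and length correction (adjusted p = 0.119), and that of Ccnd3 at 24 h with the correction (adjusted p = 0.0988). Cdk4 and, in each comparison named, Ccnd3 passed without that library, and Ccnd2 was then also higher with MPC EVs at 12 h.

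Of 14 tested subunits of the APC/C itself, 2 rose and 0 fell between the times with MPC EVs, and 2 rose and 1 fell in control. At 12 h 4 were lower with MPC EVs. Over all tested genes 12.9% rose with MPC EVs, 7.54% rose in control and 14.3% were lower at 12 h. Without control 12 h replicate 2, 24.8% rose and 12.8% fell with MPC EVs, 12.2% rose and 11.1% fell in control, and 10.4% were lower at 12 h. No share is given at an unadjusted p. Without control 12 h replicate 2 limma called 0 at 12 h, with 5 lower at an unadjusted p under 0.05, and 6 rose and 1 fell between the times with MPC EVs. Voom on all libraries called 3 lower at 12 h. The GC and length correction of all libraries left 0 lower at 12 h and 0 that rose with MPC EVs. Of 16 tested genes of condensin, cohesin and their regulators, 4 rose and 0 fell between the times with MPC EVs, and 1 rose and 0 fell in control. Among them Espl1, which encodes separase, had 1.76 and 1.68 FPKM in MPC EV myotubes at 24 h, 1.74 and 1.72 in control myotubes at 24 h, 0.705 and 0.773 in MPC EV myotubes at 12 h, and 1.28 and 1.23 in control myotubes at 12 h. It rose by 0.84 ± 0.12 with MPC EVs (limma, adjusted p = 0.00741) and was lower with MPC EVs at 12 h by 0.50 ± 0.12 (adjusted p = 0.037). The call at 12 h was lost without control 12 h replicate 2 (-0.52 ± 0.17, limma, adjusted p = 0.0768) and with the GC and length correction (adjusted p = 0.103). Without control 12 h replicate 2, 6 genes of this list rose and 4 fell with MPC EVs, the 4 being Smc2, Smc3, Smc4 and Stag2, and 1 rose and 1 fell in control.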
